A study of Rattus norvegicus with 8 samples.

Results

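Untreated myelinating cultures collected at 10 days were compared with untreated cultures collected at 24 h, which are 4 of the 8 arrays of the series. The arrays were chosen by their titles, as the 2 labelled untreated at 24 h and the 2 labelled untreated at 10 days; the other 4 arrays are of cultures given human FGF9 (a secreted growth factor) at 100 ng/ml for the same times. The cultures were made from spinal cords of Sprague-Dawley rat embryos at stage E15.5, freed of meninges and dissociated. Total RNA was read on Affymetrix Rat Gene 1.0 ST arrays. The 4 control arrays therefore share strain, source and the absence of FGF9 (0 ng/ml), and the labels name no genotype or transgene. The 24 h and 10 days are the times of the treatment arm, and the age of the cultures on these arrays is not stated. Nothing in the labels says that the 2 arrays of a group were separate cultures, so the spread between them may be technical. The source field names neurosphere-derived astrocytes, a monolayer described elsewhere in the protocols, while the titles name myelinating cultures.

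Such cultures hold neurons, astrocytes, oligodendrocytes and their precursors together, and over weeks the oligodendrocytes wrap the axons. Precursors leave the cell cycle, pass through a short premyelinating stage and then make large amounts of a few membrane proteins and lipids, while neurons extend axons and form synapses. Maturation of astrocytes includes loss of the progenitor filament nestin and gain of channels, transporters and enzymes that handle ions, glutamate and glucose.

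The array names in the labels begin with 1 of 3 prefixes, whose meaning the labels do not give. Replicate 1 at 24 h is a CL1 array, replicate 2 at 24 h and replicate 1 at 10 days are both CL2 arrays, and replicate 2 at 10 days is an AA1 array. Time and prefix are therefore mixed, and only the CL2 pair holds both times under 1 prefix. Across features the AA1 array correlated with the other controls at r = 0.924 to 0.937, and the other 3 correlated with each other at 0.973 to 0.984. The medians of the 4 arrays were 6.66 to 6.73 on the log2 scale, in which a step of 1 is a 2-fold change. Their 5th percentiles were 4.79 to 4.84.

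The markers of the labelled culture were present in all 4 arrays. Gfap, the filament protein of astrocytes, stood at 12.90 and 12.99 at 24 h and 13.24 and 12.40 at 10 days (replicates 1 and 2 in each case, here and below). Snap25, a protein of neuronal synapses, stood at 11.83 and 12.91, then 12.93 and 13.78. Mbp, myelin basic protein, stood at 12.67 and 11.06, then 12.01 and 10.93. Csf1r, a receptor of microglia, was at 9.47 to 10.81. Pecam1 of endothelium (5.12 to 5.53) and the Schwann lineage genes Foxd3 (5.45 to 5.75) and Prx (5.08 to 5.93) were low in all 4 arrays, but other members of these lists were not. The endothelial genes Kdr (5.72 and 9.01, then 8.95 and 5.46) and Abcb1a (5.77 and 8.68, then 8.28 and 5.10) were high in both CL2 arrays, and the Schwann lineage gene Cdh19 was at 8.79 in the CL1 array. Abcb1a here, and Fbln2 and Kcnj10 below, were chosen after their values were seen. Most fibroblast genes were lower in the AA1 array than in the CL1 array. Col3a1, a fibrillar collagen, stood at 10.56, 11.07 and 11.29 in the first 3 arrays and at 5.36 in AA1. The 23 measured collagen, fibroblast and pericyte genes had array medians of 8.46 and 8.34 at 24 h and 8.68 and 6.12 at 10 days. Of these, 18 were lower and 5 higher in AA1 than in CL1, and Fbln2, a matrix protein, was highest in AA1 (7.29 and 6.57, then 6.59 and 9.16). In RNA from whole cultures, fewer cells of a type and less RNA per cell cannot be told apart.

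No gene passed the test over the 4 control arrays, and few were apart by 2-fold or more in every array pair. In limma, fitted on all 8 arrays with 1 mean per group, 0 of 14506 genes (0%) passed an adjusted p of 0.05 for 10 days against 24 h. The smallest adjusted p was 0.983, and 415 genes had an unadjusted p under 0.05 where 725 would be expected by chance. With 2 arrays against 2, an exact two-sided permutation test of a single gene cannot go below 0.333. Genes were therefore also described by their gap, the lower array of the higher time minus the higher array of the lower time, which is the smallest of the 4 possible array differences. A gap of at least 1 log2 unit was found for 13 genes higher at 10 days (0.0896%) and 7 lower (0.0483%). After subtraction of each array's median the split was 18 higher and 2 lower, and after quantile normalization 15 and 3. Without the AA1 array the counts were 70 and 25, and without the CL2 array at 10 days they were 771 and 788. Without replicate 1 at 24 h they were 32 and 41, and without replicate 2 at 24 h 138 and 207.

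The leading gene was Car12, a membrane carbonic anhydrase that handles carbon dioxide and acid outside the cell. It stood at 5.42 and 6.33 at 24 h and at 8.34 and 8.42 at 10 days, a difference of 2.51 ± 0.33 log2 units (SE of the limma fit, n = 2 arrays per time) and a gap of 2.02. Slc44a3, of the choline transporter-like family, followed with 5.53 and 5.76, then 7.30 and 7.24 (1.63 ± 0.26). In both genes the 10-day arrays lay close together and clear of the 24 h arrays. Vegfa, the vascular growth factor induced by low oxygen, was at 7.93 and 8.86 and then at 10.06 and 10.27 (1.77 ± 0.47). Chi3l1, a chitinase-like protein secreted by astrocytes and macrophages, was at 7.32 and 8.40 and then at 9.52 and 10.25 (2.03 ± 0.46). Replicate 1 was the lower of the 24 h arrays for all 4 genes.

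The other 9 genes with such a gap on the higher side differed by 1.30 to 1.89. They were Adhfe1, a mitochondrial alcohol dehydrogenase (1.79 ± 0.44), Cldn10, a claudin of cell junctions (1.65 ± 0.49), Tmem116 (1.65 ± 0.44), the hydrolase Cmbl (1.56 ± 0.52) and the monooxygenase Fmo1 (1.89 ± 0.45). Cyp7b1, an oxysterol hydroxylase, differed by 1.62 ± 0.53, Tmem255b by 1.35 ± 0.39, the growth factor Pdgfd by 1.33 ± 0.40 and Aph1b, a subunit of gamma-secretase, by 1.30 ± 0.41. Just under the limit lay Fgf2, a growth factor of astrocytes and precursors, at 8.24 and 8.91 and then 9.91 and 9.97 (1.36 ± 0.30), and Ntsr2, an astrocyte neurotensin receptor, at 9.14 and 9.78 and then 10.81 and 10.75 (1.32 ± 0.27). None of these passed after adjustment (adjusted p = 0.983 in limma for each).

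The lower side was led by Actc1, the cardiac actin, which stood at 7.04 and 6.46 at 24 h and at 5.28 and 5.20 at 10 days (-1.51 ± 0.24). Sostdc1, a secreted antagonist of BMP and Wnt signals, stood at 8.30 and 7.64 and then at 6.41 and 6.54 (-1.50 ± 0.33). Both 10-day arrays again lay close together. H19, an imprinted non-coding RNA of embryonic tissue, stood at 10.96 and 10.20 and then at 9.20 and 6.12 (-2.93 ± 1.01), so the AA1 array carried most of its difference. Sertm1 (-1.42 ± 0.33), Rexo2, an oligoribonuclease (-2.01 ± 0.55), Car8, a carbonic anhydrase-related protein (-1.15 ± 0.27), and Elovl2, an elongase of long fatty acids (-1.19 ± 0.42), made up the rest.

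Next in order on the lower side were the RNA-binding protein Rbm14 (-1.09 ± 0.20), Lfng, which modifies Notch (8.65 and 8.48, then 7.56 and 7.57), the amino acid transporter Slc7a3 (-1.49 ± 0.52) and Etv4, an ETS factor switched on by FGF signalling (-0.96 ± 0.19). Etv4 stood at 6.91 and 6.89 and then at 6.03 and 5.84. They were followed by Rnf113a1 (-0.97 ± 0.47), the nicotinic receptor subunit Chrna5 (-0.88 ± 0.21), Rasa3 (-0.96 ± 0.20) and Ptgs1, a cyclooxygenase (-1.16 ± 0.34). Fgfbp3, which releases FGFs from matrix, was also lower in both 10-day arrays, at 7.43 and 7.88 and then 6.74 and 6.25 (-1.16 ± 0.39).

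**Figure D1:**
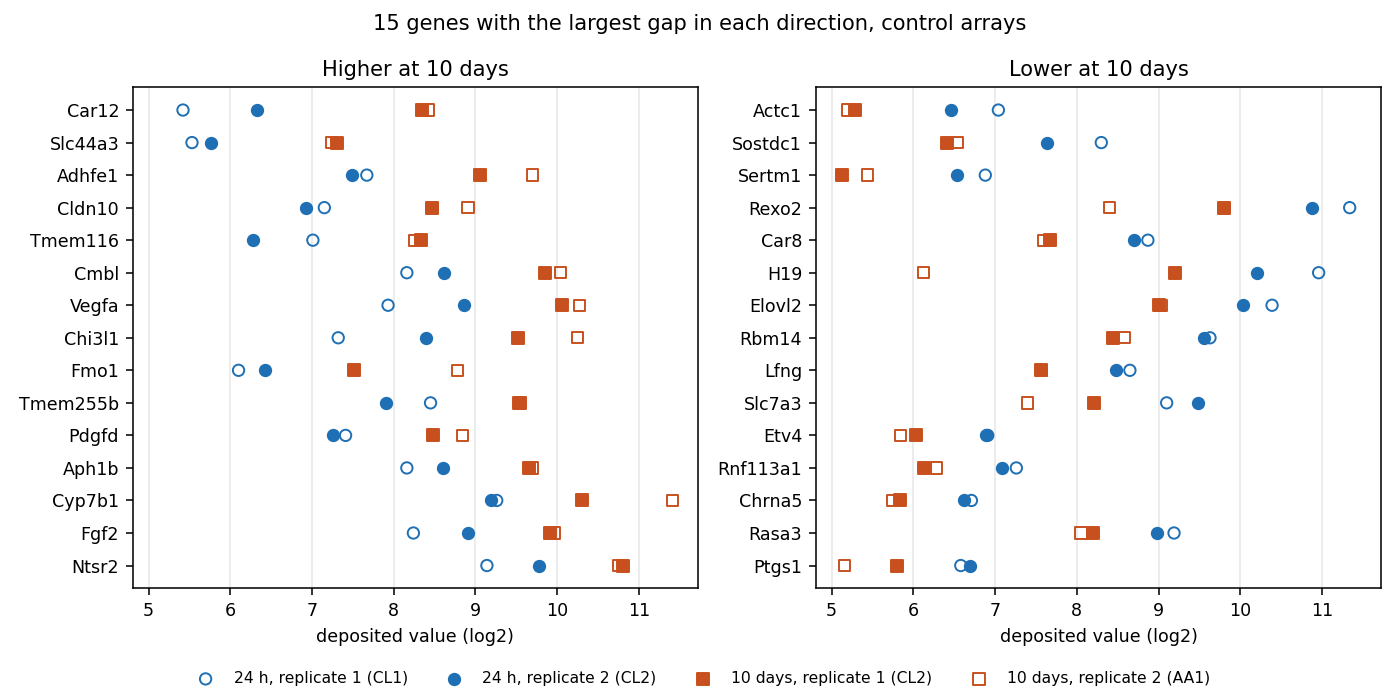
Deposited log2 values of the 15 genes with the largest gap in each direction, 1 point per control array (circles 24 h, squares 10 days, filled symbols the CL2 pair). For Car12 both squares lie above 8.3 and both circles below 6.4, and for H19 the AA1 square at 6.12 lies apart from the CL2 square at 9.20.

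With the array prefix as a fixed block in limma, 1 gene passed (0.00689% of the 14506), and it was lower. Stra6, a membrane transporter of vitamin A, stood at 6.21 and 8.62 at 24 h and at 5.40 and 5.46 at 10 days. The blocked difference was -3.29 ± 0.18 (adjusted p = 0.0309 in limma) against -1.99 ± 1.06 without the block, and -3.22 within the CL2 pair. It was high in 1 of the 4 arrays, replicate 2 at 24 h. Igfbp3, a binding protein of insulin-like growth factors, had the same shape at 8.25 and 10.69 and then 7.50 and 6.92, with a blocked difference of -2.97 ± 0.24 that did not pass (adjusted p = 0.118). In the blocked fit 1990 genes had an unadjusted p under 0.05. Only the CL2 arrays hold both times, so the blocked SE and p rest on how the FGF9 difference repeats between prefixes. Here and below, they do not measure how the change with time repeats. The blocked difference itself draws mostly on the CL2 control pair, and partly on the other control and FGF9 arrays. It is therefore no separate check on the CL2 pair.

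The 2 array pairs that share no array gave different pictures. Differences within the CL2 pair had an SD of 0.40 over genes. Those of the AA1 array against the CL1 array, the remaining pair, had an SD of 0.85. The 2 sets correlated at r = -0.245 across genes (a description over 14506 genes, which are not replicates), and 43.6% of genes had the same sign in both. In the CL2 pair 161 genes were higher by at least 1 at 10 days (1.11%) and 237 were lower (1.63%). After subtraction of array medians these counts were 214 and 149. The array median over genes was 0.10 lower in the 10-day CL2 array than in the 24 h CL2 array. The median of the differences of single genes was 0.00. Over all features the medians of these 2 arrays were both 6.66, so the shift was seen only over the genes kept. The balance of higher and lower genes in this pair thus depended on the scaling. In the other pair 1472 genes were higher by at least 1 (10.1%) and 1341 were lower (9.24%). Between replicates of 1 time, 949 genes lay at least 1 apart between the 24 h replicates and 2821 between the 10-day replicates, against 398 in the CL2 pair. The CL2 pair has no replicate check, and its values below are given without a test.

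**Figure D2:**
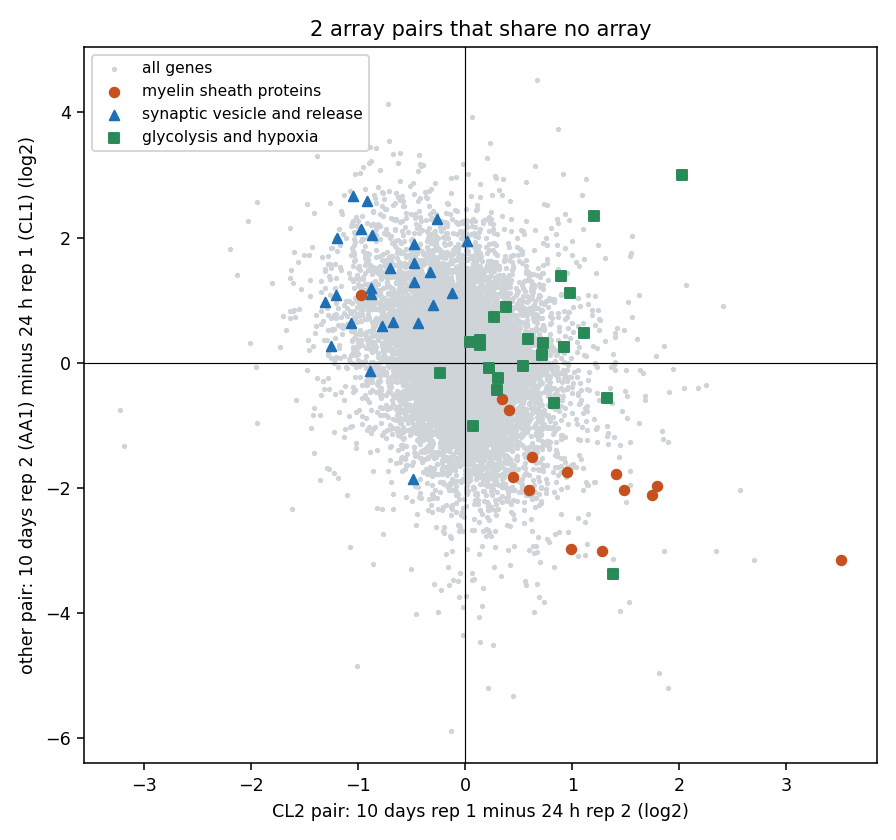
Log2 differences between 10 days and 24 h for each gene in the CL2 pair (horizontal) and in the other pair, AA1 minus CL1 (vertical). Myelin sheath genes lie to the lower right apart from Cntn2, synaptic genes mostly to the upper left, and glycolysis and hypoxia genes mostly right of 0.

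Myelin transcripts did not separate the times over the 4 arrays. Of 14 measured myelin sheath genes, 0 were higher and 0 lower without overlap, against 13.8% of all genes higher and 13.6% lower. Their median difference was -0.24, against 0.00 for all genes tested, and it was 0.90 in the blocked fit. Within the CL2 pair 13 of 14 were higher at 10 days, where 50.5% of all genes were, with a median of 0.97 and 6 members higher by at least 1. In the other pair 13 of 14 were lower, with a median of -1.90. The high arrays were replicate 1 at 24 h and replicate 1 at 10 days, whose list medians were 11.66 and 11.01, and the low arrays were the second replicates at 9.69 and 9.53.

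Mal, a lipid raft protein of compact myelin, varied most, at 11.80 and 7.34 at 24 h and 10.85 and 8.65 at 10 days. Its difference was 0.18 ± 1.84 over the 4 control arrays, 3.51 in the CL2 pair and 3.24 ± 0.28 in the blocked fit (adjusted p = 0.118). Mog, a surface protein of the outermost myelin layer, stood at 11.52 and 9.01 and then at 10.48 and 9.48 (-0.28 ± 1.25; 1.48 in the CL2 pair; 1.77 ± 0.26 with the block). The 2 times overlapped for both genes, and the CL1 array at 24 h held the highest value of each.

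Mbp differed by -0.40 ± 0.85, by 0.95 in the CL2 pair and by 1.05 ± 0.21 with the block (adjusted p = 0.144). Mobp, a cytoplasmic protein of compact myelin, stood at 11.86 and 9.58 and then at 11.32 and 9.73, and Mag, the axon-facing adhesion protein, at 12.20 and 10.18 and then 11.16 and 9.22. Cntn2, an adhesion molecule of axons and of myelin next to the node, was the 1 member lower in the CL2 pair (-0.97). Among the other mature oligodendrocyte genes 17 of 20 were higher in the CL2 pair, with a median of 0.74, and 16 of 20 were lower in the other pair. The protease gene Klk6 stood at 9.75 and 5.91 and then at 7.44 and 5.92. Markers of microglia followed the same arrays, with 24 of 26 higher in the CL2 pair (median 0.59) and 20 of 26 lower in the other pair. Their part in the myelin values was not tested.

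The upstream sequence of Mobp is shown because it was among the myelin genes with the largest CL2 difference (1.74) and its window holds repeated Sox-type letters. It is the 250 bases before the RefSeq start (chr8:128746982-128747231, GRCr8, plus strand, 5′ to 3′), with matches to ACAAAG on either strand in capitals:
Mobp: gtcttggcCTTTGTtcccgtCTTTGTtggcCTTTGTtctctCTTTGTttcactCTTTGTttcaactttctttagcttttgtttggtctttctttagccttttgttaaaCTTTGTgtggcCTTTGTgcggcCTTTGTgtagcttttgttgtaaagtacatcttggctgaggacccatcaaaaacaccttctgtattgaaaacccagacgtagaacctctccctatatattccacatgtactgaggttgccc
The letters ACAAAG form the core bound by Sox factors, among them the oligodendrocyte factor Sox10. The window held 8 matches, all on the opposite strand as CTTTGT. They lie in a T-rich stretch of similar repeated units, so they need not be 8 separate sites. Of all 33469 windows of this length 16.3% held at least 1 match, and 5 of 12 windows of myelin sheath genes did (41.7%; 11 of the 14 genes had a window). A match is a string of letters and was not shown to be bound.

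Of 15 genes of newly forming oligodendrocytes, 0 were higher and 5 lower without overlap (13.8% and 13.6% of all genes), and the median difference was -0.72. Bcas1, which marks oligodendrocytes beginning to myelinate, stood at 10.06 and 9.88 and then at 9.32 and 8.52 (-1.05 ± 0.35). Gpr17, a receptor of the premyelinating stage, stood at 8.71 and 9.27 and then at 8.45 and 7.94, and Fyn, a kinase active as wrapping begins, at 11.51 and 11.39 and then 11.02 and 10.43. The AA1 array was the lowest of the 4 for all 3 genes, and in the CL2 pair the list median was -0.01. Without AA1, 3 members were higher and 5 lower than in both 24 h arrays (30.7% and 30.3% of all genes). Enpp6, another gene of this stage, overlapped (8.45 and 8.93, then 8.87 and 7.01).

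Of 15 precursor genes 2 were higher and 3 lower without overlap, near the 13.8% and 13.6% of all genes, with a median difference of 0.22. Pdgfra, the receptor that drives precursor division, overlapped at 10.16 and 10.71 and then 11.21 and 10.41. Olig1, a transcription factor of the whole lineage, was lower in both 10-day arrays, at 11.71 and 11.10 and then 10.47 and 10.30 (-1.01 ± 0.40). None of these genes passed in limma with or without the block.

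Genes of cholesterol synthesis, the pathway that feeds myelin membrane, were lower in all 17 measured members within the CL2 pair, where 49.5% of all genes were lower, with a median of -0.56. Over the 4 arrays 0 were higher and 6 lower without overlap (13.8% and 13.6% of all genes), with a median of -0.32. In the other pair 7 of 17 were higher and 10 lower, with a median of -0.14. Leaving out AA1 gave 0 higher and 10 lower than both 24 h arrays, against 30.7% and 30.3% of all genes. Lss, which closes the sterol ring, stood at 10.60 and 10.72 and then at 10.01 and 10.23. Sqle, the enzyme before it, stood at 10.75 and 10.90 and then at 10.44 and 10.12, and Insig1, a brake on the pathway, at 10.33 and 10.30 and then 9.93 and 9.72. Myelin lipid enzymes had a median of 0.04 in the CL2 pair, with 5 of 8 higher.

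Glycolysis and hypoxia genes were, of the 33 lists, the one with the most members higher without overlap, 11 of 23 against 13.8% of all genes, with 1 lower (13.6% of all genes). The median difference was 0.37, and 22 of 23 were higher in the CL2 pair (median 0.59). With the AA1 array 14 of 23 were higher than in CL1 (median 0.28), and the median was -0.18 against replicate 2 at 24 h. Without the AA1 array, 22 of 23 were higher at 10 days than in both 24 h arrays, as 30.7% of all genes were (30.3% were lower than in both). Besides Car12 and Vegfa, Slc2a1, the main glucose transporter of brain barriers and glia, stood at 10.66 and 10.85 and then at 11.83 and 11.77 (1.04 ± 0.39). Bnip3, a mitochondrial protein induced by low oxygen, stood at 10.97 and 11.15 and then at 12.04 and 12.35 (1.14 ± 0.23).

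Both genes were higher in each 10-day array than in each 24 h array, by at least 0.92 and 0.89. Gpi, the enzyme that forms fructose phosphate, stood at 11.96 and 12.30 and then 12.57 and 12.70, and Pfkl, the liver-type phosphofructokinase, at 10.14 and 10.26 and then 11.18 and 10.40. Hk2, an inducible hexokinase, overlapped because the AA1 array was low (8.98 and 8.52, then 9.90 and 5.62). Car9, another oxygen-regulated carbonic anhydrase, stayed between 5.28 and 5.81. Mitochondrial oxidative phosphorylation genes had a median difference of -0.11, with 2 of 19 higher and 2 lower without overlap, near the shares of all genes (13.8% and 13.6%).

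Upstream windows of 3 of these genes are shown since they were among the members with the largest gap. Vegfa, whose gap of 1.20 was larger than those of Slc2a1 and Bnip3, is not shown. The capitals mark ACGTG or GCGTG on either strand, the core letters of hypoxia response elements (GRCr8, RefSeq starts, 250 bases, 5′ to 3′ on the gene's strand; chr8:76169565-76169814, plus; chr5:138002272-138002521, plus; chr1:203154963-203155212, minus):
Car12: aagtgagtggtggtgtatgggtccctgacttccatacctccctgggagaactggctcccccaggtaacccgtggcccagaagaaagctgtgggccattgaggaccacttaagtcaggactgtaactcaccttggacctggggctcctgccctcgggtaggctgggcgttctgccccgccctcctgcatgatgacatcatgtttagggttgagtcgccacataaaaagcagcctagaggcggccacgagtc
Slc2a1: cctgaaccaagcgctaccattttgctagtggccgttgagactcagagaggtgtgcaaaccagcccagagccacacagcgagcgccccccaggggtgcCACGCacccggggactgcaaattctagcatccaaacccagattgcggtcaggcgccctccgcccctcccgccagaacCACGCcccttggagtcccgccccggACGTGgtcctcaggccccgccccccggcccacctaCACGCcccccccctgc
Bnip3: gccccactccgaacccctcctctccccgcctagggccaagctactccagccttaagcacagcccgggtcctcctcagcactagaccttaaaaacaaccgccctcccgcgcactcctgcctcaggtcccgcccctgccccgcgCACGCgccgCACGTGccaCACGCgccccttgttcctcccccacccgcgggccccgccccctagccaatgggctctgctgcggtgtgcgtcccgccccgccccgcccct
The windows held 0, 4 and 4 matches, and 2 of those in Bnip3 overlap as 1 palindrome. Of all windows 36.7% held a match. Among the 11 list genes that were higher without overlap 6 of 12 windows did, and among the other members 7 of 15, so the share was alike in both.

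The median astrocyte gene was higher at 10 days by a small amount in each of the 4 array pairs. Of 22 measured, 9 were higher and 1 lower without overlap (13.8% and 13.6% of all genes), with a median difference of 0.27 and pair medians between 0.26 and 0.45. In the CL2 pair 18 of 22 were higher and 4 lower, and in the other pair 14 were higher and 8 lower. Without the AA1 array 16 were higher than in both 24 h arrays and 3 lower (30.7% and 30.3% of all genes). Maob, the monoamine oxidase of astrocytes, stood at 10.54 and 11.13 and then at 11.99 and 11.98 (1.14 ± 0.25). Gja1, which forms the main astrocyte gap junction, stood at 11.90 and 12.21 and then at 12.68 and 12.98 (0.77 ± 0.33). The water channel Aqp4 stood at 13.11 and 12.74 and then at 13.33 and 13.50, and Ndrg2 at 13.05 and 12.96 and then 13.41 and 13.68. Fgfr3, an FGF receptor of astrocytes, was the member lower in both 10-day arrays (9.75 and 9.10, then 8.91 and 8.55), while Gfap overlapped. Kcnj10 also overlapped (10.42 and 10.03, then 8.56 and 10.79), and it fell furthest of the list in the CL2 pair (-1.47).

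Several progenitor genes were lower in both 10-day arrays. Nes, the progenitor filament nestin, stood at 10.35 and 9.77 at 24 h and at 9.00 and 7.61 at 10 days (-1.75 ± 0.50). Of 16 progenitor and radial glia genes 1 was higher and 6 were lower without overlap (13.8% and 13.6% of all genes), with a median of -0.23. Without the AA1 array 3 were higher and 10 lower than in both 24 h arrays (30.7% and 30.3% of all genes). The Notch targets Hes1 (8.79 and 8.53, then 7.91 and 8.31) and Hes5 (7.34 and 7.46, then 6.66 and 7.24) were among the lower. Pax6 was the 1 higher (7.96 and 7.95, then 8.29 and 8.44). Of 22 reactive astrocyte genes 0 were higher and 6 lower without overlap (13.8% and 13.6% of all genes), with a median of 0.04 in the CL2 pair and -0.28 over the 4 arrays. With AA1 left out, 9 were above and 7 below both 24 h arrays (30.7% and 30.3% of all genes). Nes is in both lists. Serpina3n, an acute phase inhibitor, stood at 5.99 and 6.93 and then at 5.52 and 5.16. Bmp6, a BMP ligand, was higher in both 10-day arrays (9.64 and 10.31, then 10.84 and 10.88; 0.89 ± 0.56).

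Cell cycle genes were highest in the CL1 array. Their array median was 8.71 in CL1, 7.25 and 7.32 in the CL2 arrays at 24 h and 10 days, and lower still in AA1, and 0 of 26 were higher and 7 lower without overlap (13.8% and 13.6% of all genes). The median difference was -0.84, but it was 0.32 in the CL2 pair, where 17 of 26 were higher. Without AA1, 1 member was above and 9 below both 24 h arrays, where 30.7% and 30.3% of all genes were. Top2a, a topoisomerase of dividing cells, stood at 10.07 and 8.10 and then at 8.66 and 6.52. Mcm5, of the replication helicase, was lower in both 10-day arrays (8.86 and 7.40, then 6.89 and 5.56), as was Ccnd1, cyclin D1 (9.96 and 9.80, then 9.25 and 8.51).

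Neuronal genes were lower in the CL2 pair and higher in the other pair. Of 25 genes of synaptic vesicles and release 24 were lower in the CL2 pair (median -0.78) and 23 were higher in the other pair (median 1.20). All 19 neurofilament and axon cytoskeleton genes were lower in the CL2 pair (median -0.64), and 16 of 19 were higher in the other pair (median 0.69). Of 29 transmitter receptor genes 26 were lower in the CL2 pair and 26 were higher in the other. Over the 4 arrays the medians of these lists were 0.39, 0.11 and 0.31. In the CL2 array at 10 days, 12 of 25 synaptic, 9 of 19 axon and 8 of 29 receptor genes were below both 24 h arrays and 1, 0 and 3 above both, against 30.3% and 30.7% of all genes. The receptor share below both was thus near that of all genes. The low arrays were again the first replicates of each time, the same 2 arrays in which myelin genes were high.

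Cplx1, which clamps vesicle fusion, stood at 9.66 and 11.04 and then at 9.73 and 10.63, a CL2 difference of -1.31. The neurofilament genes Nefl (10.75 and 12.03, then 11.50 and 12.20), Nefm (9.84 and 11.65, then 10.98 and 10.54) and Nefh (7.47 and 9.40, then 8.72 and 8.96) overlapped between times. So did Dcx, a microtubule protein of young neurons (10.11 and 10.69, then 9.98 and 11.10). Lower without overlap at 10 days were 4 of 24 immature neuron, 3 of 19 axon and 2 of 25 synaptic genes. These shares were near or under the 13.6% of all genes. Higher without overlap were 1, 0 and 1 of them (13.8% of all genes). Gap43, a protein of growing axon tips, stood at 10.04 and 11.11 and then at 9.82 and 8.35 (-1.48 ± 0.75).

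Prph, the filament peripherin of motor and sensory axons, stood at 7.18 and 7.97 and then at 6.61 and 5.29 (-1.62 ± 0.57). Mapk8ip1, a scaffold of axonal JNK signalling, stood at 11.30 and 11.01 and then at 9.93 and 10.28 (-1.05 ± 0.30), and the vesicle protein Syt4 at 11.63 and 11.69 and then 11.20 and 9.78 (-1.17 ± 0.68). Gap43, Prph and Syt4 were lowest in the AA1 array, and Mapk8ip1 in the CL2 array at 10 days. Of 29 transmitter receptor genes 3 were higher and 1 lower without overlap, shares under those of all genes (13.8% and 13.6%). Among the higher was Gabrg1, a GABA receptor subunit, at 10.49 and 9.88 and then 11.09 and 11.55 (1.13 ± 0.50).

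**Figure D3:**
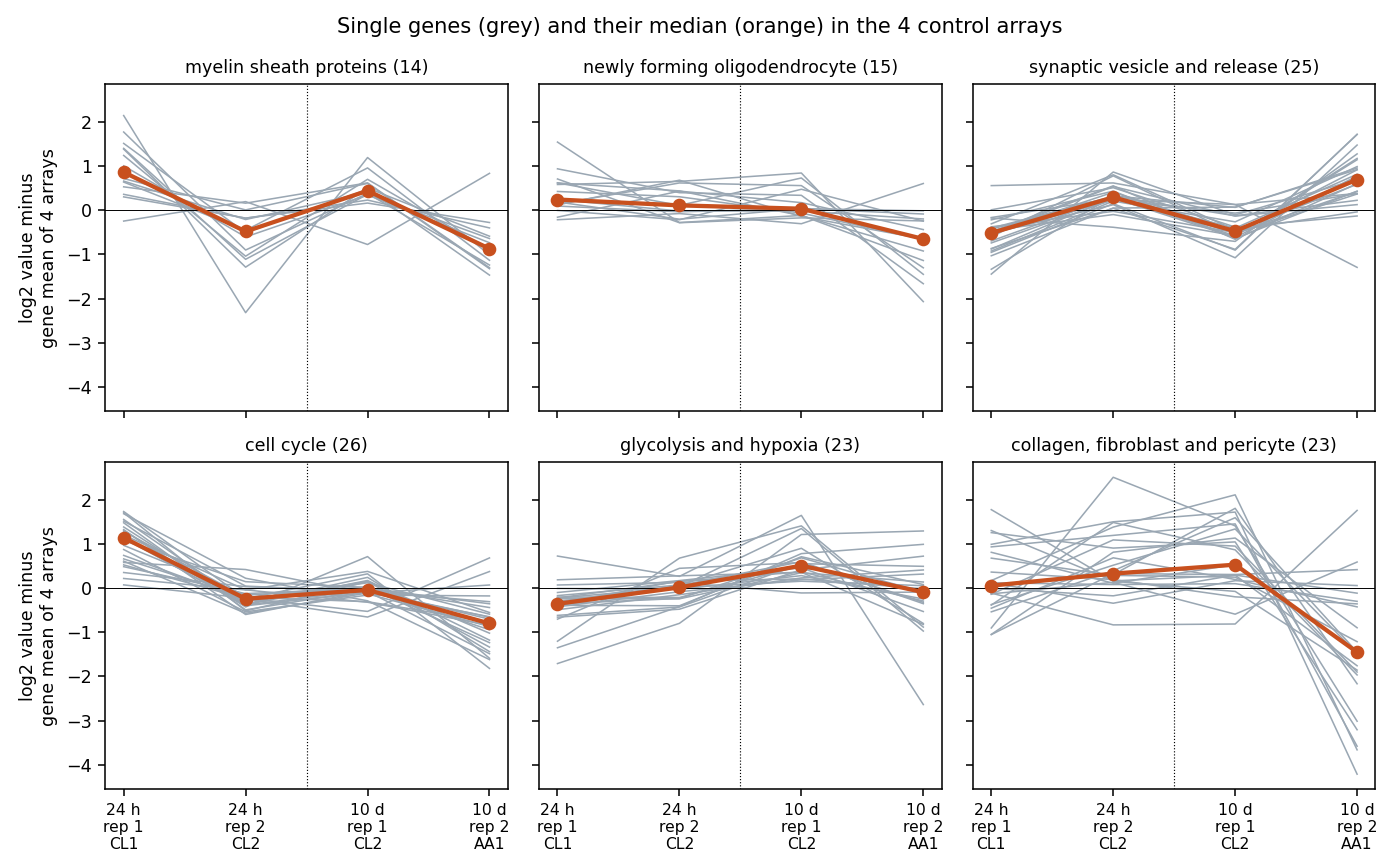
Log2 values of 6 gene lists in the 4 control arrays, each gene relative to its own mean over these arrays (grey) with the list median (orange); the dotted line parts the times. Myelin sheath genes are high in the first replicate of each time, synaptic genes in the second, and the median of fibroblast genes is low in the AA1 array.

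Immediate early genes, which neurons and glia switch on within minutes of a stimulus, were higher without overlap in 7 of 18 members and lower in 0 (13.8% and 13.6% of all genes). Their median difference was 0.35, with pair medians of 0.18 to 0.43. With AA1 left out 11 were above both 24 h arrays and 1 below (30.7% and 30.3% of all genes). Nr4a1, a nuclear receptor of this group, stood at 7.76 and 7.47 and then at 8.98 and 8.73 (1.25 ± 0.33; 1.72 ± 0.21 with the block, adjusted p = 0.128). Npas4, a factor induced by neuronal activity, stood at 5.30 and 5.66 and then at 6.71 and 6.33 (1.05 ± 0.31). Fos stood at 6.77 and 7.08 and then at 8.18 and 7.39, and Egr1 at 7.66 and 8.63 and then 8.85 and 11.17, with the AA1 array far above the other 3.

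Interferon response and antigen processing genes were higher without overlap in 4 of 21 members and lower in 0, against 13.8% and 13.6% of all genes. The higher share was near that of all genes. Mx1 (7.69 and 5.57, then 5.98 and 8.34), Mx2 (10.37 and 9.24, then 9.67 and 10.46) and Irf7 (6.71 and 5.94, then 6.56 and 7.18) overlapped. All of them were lower in both CL2 arrays than in the CL1 and AA1 arrays. The median difference of the list was 0.44, and 0.08 in the blocked fit. With AA1 left out, 9 of the 21 were above and 0 below both 24 h arrays (30.7% and 30.3% of all genes). B2m, the light chain of class I molecules, stood at 12.56 and 12.61 and then at 13.03 and 13.22. Cd74, the invariant chain of class II molecules, is in the microglia and macrophage list instead. It stood at 7.31 and 6.49 and then at 8.06 and 8.04 (1.15 ± 0.32). It was 1 of 2 among the 26 genes of that list that were higher without overlap. With 0 lower, these shares were under those of all genes (13.8% and 13.6%).

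FGF ligands and receptors are read here because the treated arm of the series received FGF9. The gene Fgf9 itself overlapped between the times (7.25 and 8.34, then 8.26 and 8.08), as did Fgfr1 (10.78 and 10.60, then 10.75 and 11.18) and Fgfr2 (11.03 and 9.98, then 10.26 and 11.03). Of 23 IGF and FGF genes 2 were higher without overlap, Fgf2 and Fgfr4, and 3 were lower, Igfbp3, Fgfbp3 and Fgfr3, shares no greater than those of all genes (13.8% and 13.6%). Housekeeping genes had a median difference of -0.03, with 2 of 13 higher and 3 lower without overlap (13.8% and 13.6% of all genes). They were not level across arrays, with array medians of 12.04 and 12.13 at 24 h and 12.41 and 11.41 at 10 days. In AA1 10 of 13 were lower than in CL1.

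**Figure D4:**
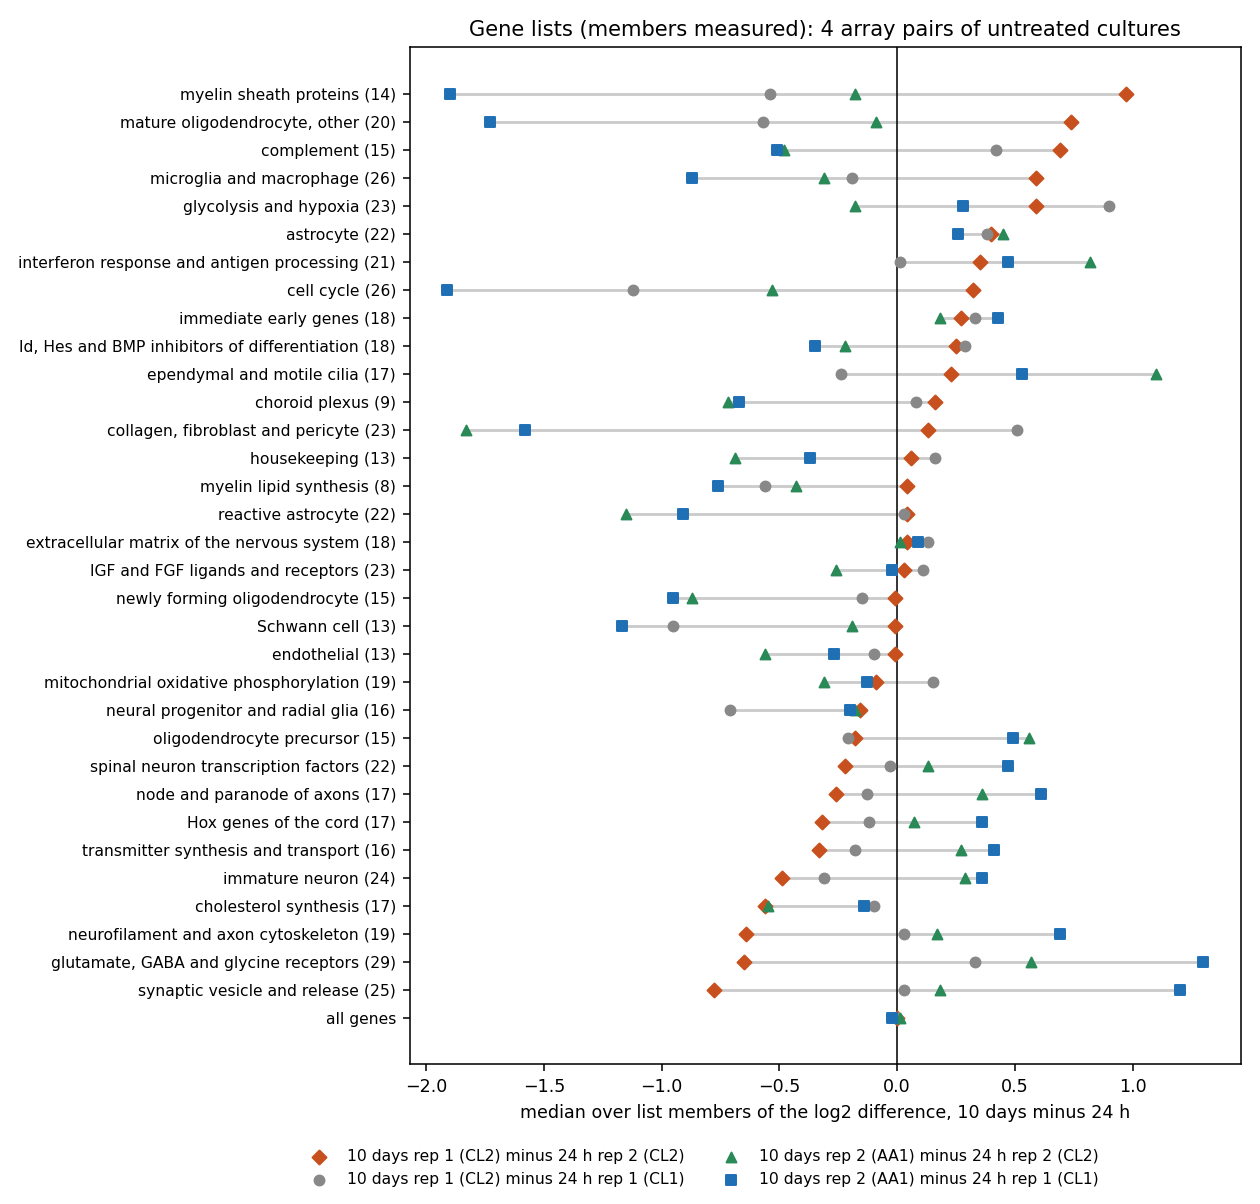
Median log2 difference between 10 days and 24 h over the members of each list, 1 symbol for each of the 4 array pairs, ordered by the CL2 pair (orange diamonds); the grey line spans the pairs. Astrocyte and immediate early genes lie above 0 in all 4 pairs. So do interferon response genes (0.01 to 0.82) and extracellular matrix genes (0.01 to 0.13). The pair medians of myelin sheath genes run from -1.90 to 0.97 and those of synaptic genes from -0.78 to 1.20.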

How the data were processed

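Groups and replicate numbers come from the sample titles. Partek 6.5 and GCRMA are named in the submitters' processing notes, and no other step is. The authors' deposited values were read as log2 from their range, since the labels state no scale, and were used as they stand. Platform annotation gave a single symbol to 15310 of the 29214 features, several to 323 and none to 13581; 15279 matched the RefSeq table (GRCr8) by Entrez identifier. Where a gene had several features (527 genes), that with the highest mean stood for it. This left 14506 genes, and genes without a row were not analysed here.

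Differences were fitted with limma 3.58.1 in R 4.3.3 on all 8 arrays (4 residual degrees of freedom, 2 with the prefix block) and adjusted by Benjamini-Hochberg. Scripts were tested on simulated data. The number of arrays limits the precision. Members and the 33 gene lists were chosen with earlier results of these data known. Named genes are the 15 with the largest gap in each direction, up to 5 per direction with the smallest p in the blocked fit, and from each list the first 4 measured, up to 4 per direction by gap and up to 3 by p, besides a short set of lineage and FGF genes always named. Alternatives were the blocks, control arrays only, left-out arrays, other scalings, a mean of at least 6, feature averaging and other gap limits.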

Additional observations from a re-analysis of the deposited data

Results flagged for a closer look

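For 3 of the genes named above the 2 control times separated in one direction and the 2 times of the FGF9 cultures in the other. H19 differed by -2.93 between 10 days and 24 h in the controls and by 2.51 in the FGF9 cultures. Etv4 differed by -0.96 and 1.11, and Bcas1 by -1.05 and 0.85. The test of the difference between the changes gave adjusted p = 1, 0.932 and 1 in limma, and 0.173, 0.0965 and 0.231 with the prefix as a block, so none of the 3 passed. Both comparisons rest on 2 arrays per group. Over all 14506 genes this test passed 0 genes without the block and 7 with it. Chi3l1 was among the 7 (adjusted p = 0.0397 in limma with the block). It was higher at 10 days in both arms, by 2.03 in the controls and 5.06 in the FGF9 cultures.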

How the results depend on the processing

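The count of genes called stayed at 0 under every alternative run, except the fixed prefix block, which called 1 lower gene. With the replicate number as a block (replicate block) it was 0 higher and 0 lower (smallest adjusted p = 0.539). Same-numbered controls deviated with a correlation of 0.0193 across genes, and same-numbered arrays of the 2 times have different prefixes. At both times the myelin sheath median was higher in replicate 1 and the synaptic median in replicate 2. The labels do not say whether the numbers pair cultures across times. A gap of 0.5 gave 113 higher and 84 lower genes, and a gap of 1.5 gave 1 and 0. The 7 lower genes became 3 after quantile normalization and 2 after subtraction of array medians. When 1 control array was left out, fewer arrays had to separate. The higher count then ran from 32 to 771 and the lower from 25 to 788, depending on which array was left out. The largest counts (771 and 788) came without the CL2 array at 10 days. In the CL2 pair a threshold of 0.5 gave 1054 higher and 1400 lower genes and one of 1.5 gave 40 and 29, and subtracting array medians gave 149 lower. Mbp turned to 1.05 with the fixed block, 0.55 with a random block and 0.14 without both AA1 arrays, and Mog to 1.77, 1.06 and 0.22. With 1 control array left out Mal ran from -2.05 to 2.41, Mbp from -1.20 to 0.41 and Mog from -1.54 to 0.97. The median of the myelin sheath list ran from -1.14 to 0.24 in the same way, that of synaptic genes from -0.43 to 0.85, of glycolysis and hypoxia genes from 0.08 to 0.71 and of astrocyte genes from 0.25 to 0.39. Of the 52 genes followed through the alternatives, all but these 3 kept their direction under each alternative. Most of the 52 were named because their control times did not overlap, and leaving out a control array cannot reverse such a gene.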
